A study of Mus musculus with 6 samples.

Results

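The genes described here are 5 regulators of chromatin and of transcription elongation, *Nsd2*, *Trrap*, *Aebp2*, *Aff1* and *Cabin1*, which were chosen by their symbols from a table of 312 genes. The table gave 3 RNA sequencing libraries labelled as adipose tissue macrophages (ATMs) of mice at postnatal day 6 (P6, infant) and 3 at postnatal day 56 (P56, adult). The study's methods describe inguinal adipose tissue depots of C57BL/6 mice, of both sexes in the study as a whole, at these ages, so that the labels and the methods name different material. Neither source ties a library to an animal, so the p-values measure the spread between these libraries, which may be technical.

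Transcription in chromatin depends on enzymes that mark histones, on complexes that read or erase these marks, and on factors that release RNA polymerase II from its pause near the start of a gene. *Nsd2* encodes a methyltransferase that places dimethyl marks on lysine 36 of histone H3, a mark of active gene regions. *Trrap* encodes a very large scaffold protein that brings histone acetyltransferase complexes to activators. *Aebp2* encodes a zinc finger cofactor of Polycomb repressive complex 2, which methylates histone H3 at silenced genes. *Aff1* encodes a scaffold of the super elongation complex, which carries the kinase that releases paused polymerase. *Cabin1* encodes a protein that binds calcineurin and holds MEF2 transcription factors inactive, and that is also found in the HIRA histone chaperone complex.

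*Nsd2* was higher at P6 and *Aff1* was lower at P6, whereas *Trrap*, *Aebp2* and *Cabin1* did not pass the test. *Nsd2* was 1.52-fold higher at P6 (95% confidence interval 1.27 to 1.80) and *Aff1* was 1.60-fold higher at P56 (95% interval 1.38 to 1.86). The test was the quasi-likelihood test of edgeR on read counts, with library sizes set to the depth recovered from the deposited files, and a gene was called at a Benjamini-Hochberg adjusted p below 0.05 over all 310 tested genes. In this table calls were common: 63.9% of the tested genes were called, 30.3% as higher and 33.5% as lower at P6. The 2 of 5 members called were therefore no larger a share than the table as a whole. The deposited table is named for differentially expressed genes, so these shares may not hold for genes outside it.

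The libraries need 3 remarks before the values. The listed genes held between 782852 and 816309 read counts per P6 library and between 497044 and 671747 per P56 library, and the 5 members together held 5400 to 8077 of them. The P56 libraries were the shallower, with a recovered relative depth of 0.803 to 0.947 against 1.10 to 1.17 at P6. The third P56 replicate differed most from the rest of its age: the mean chi-square per gene was 45.0 and 22.8 between it and the other 2, against 8.55 between those 2 and 8.77 to 9.80 between P6 libraries. Leaving it out, *Nsd2* (log2 fold change 0.56, edgeR adjusted p = 0.00032) and *Aff1* (-0.77, edgeR adjusted p = 6.1e-08) were still called and the other members were not.

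No gene of 6 marker lists (macrophage, adipocyte, fibroblast and preadipocyte, endothelium, lymphocyte and proliferation, 66 genes in all) was among the 312, so the labelled cell type could not be checked against its defining markers. These lists are short, and their absence does not mean that the table is silent on cell division or cell type. It held genes linked to cell division that lay outside the lists and were not examined as a set. Some of these were called higher at P6 and others were not called. The table held 5 of 12 smooth muscle and pericyte markers, with a summed TPM of 898 to 1263 at P6 and 623 to 743 at P56, and 4 of the 5 were called higher at P6. It also held 2 of 10 skeletal muscle markers, *Acta1* and *Neb*, both called lower at P6, with a summed TPM of 151 to 173 at P6 and 542 to 562 at P56. Other contractile genes of the table lay outside these lists and were not counted, so the sums do not describe all such genes. The part of muscle cells, pericytes and dividing cells in the differences of *Nsd2* and *Aff1* was not tested. In such bulk libraries fewer cells of a type and less RNA per cell cannot be told apart.

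RefSeq promoter windows of GRCm38.p6, running from 250 bases before to 50 bases after an annotated start, were matched for 4 of the 5 members (*Trrap*, *Aebp2*, *Aff1* and *Cabin1*), with 7 windows in all. *Nsd2* had no entry. The window of the upstream start of *Aff1*, the member called lower at P6, is printed here beside 1 window each of the 3 members that were not called, to show how different in base composition they are. Capitals mark matches, on either strand, to any of 5 short motifs. The first is TATAAA, which some strongly regulated promoters carry just upstream of the start. The second is CCAAT, which the factor NF-Y recognises. The third is GGGCGG, the GC box recognised by factors of the Sp family. The fourth is CACGTG, the E-box recognised by MYC and its relatives. The fifth is CCGGAAG, a core recognised by factors of the ETS family.

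Aff1, window at chr5:103753912-103754211, plus strand: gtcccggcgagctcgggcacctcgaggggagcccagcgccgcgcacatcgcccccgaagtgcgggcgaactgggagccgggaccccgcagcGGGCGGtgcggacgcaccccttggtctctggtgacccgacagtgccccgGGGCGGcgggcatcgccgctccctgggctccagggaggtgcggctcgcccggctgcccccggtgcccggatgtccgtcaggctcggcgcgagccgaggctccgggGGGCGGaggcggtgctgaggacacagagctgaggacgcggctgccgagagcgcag
Trrap, window at chr5:144768544-144768843, plus strand: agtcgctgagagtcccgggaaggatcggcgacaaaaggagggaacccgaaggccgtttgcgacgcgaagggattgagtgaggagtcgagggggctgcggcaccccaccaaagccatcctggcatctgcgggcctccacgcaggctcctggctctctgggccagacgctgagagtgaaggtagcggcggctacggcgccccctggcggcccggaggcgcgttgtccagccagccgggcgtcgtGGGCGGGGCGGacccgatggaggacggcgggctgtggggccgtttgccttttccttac
Aebp2, window at chr6:140624659-140624958, plus strand: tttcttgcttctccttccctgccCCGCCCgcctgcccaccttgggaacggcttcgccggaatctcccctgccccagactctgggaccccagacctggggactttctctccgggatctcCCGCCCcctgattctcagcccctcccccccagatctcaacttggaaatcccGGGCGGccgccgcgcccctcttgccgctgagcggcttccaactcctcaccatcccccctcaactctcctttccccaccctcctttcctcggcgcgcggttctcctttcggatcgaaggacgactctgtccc
Cabin1, window at chr10:75764308-75764607, minus strand: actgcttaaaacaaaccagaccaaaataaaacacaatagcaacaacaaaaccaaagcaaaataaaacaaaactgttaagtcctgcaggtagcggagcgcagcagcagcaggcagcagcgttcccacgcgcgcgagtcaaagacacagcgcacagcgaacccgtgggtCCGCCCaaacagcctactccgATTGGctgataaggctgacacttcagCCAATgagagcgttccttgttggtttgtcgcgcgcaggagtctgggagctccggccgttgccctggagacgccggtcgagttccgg

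The *Aff1* window was the richest in CG dinucleotides of the 4, with 40, more than 96.1% of the 32851 mouse promoter windows. It had 3 GC boxes and a GC content of 77.3%. The median number of CG dinucleotides was 7 over all windows but 21 over the windows of listed genes. The *Trrap* window held 31 CG dinucleotides and 2 GC boxes, which share 1 base. The *Aebp2* window held 21 and 3 GC boxes. The *Cabin1* window held 22 CG dinucleotides, 1 GC box and 2 CCAAT boxes in opposite orientation, and its GC content of 54.7% was close to the median of 52.7% over all windows. A GC box was present in 35.7% of all mouse windows and in 63.7% of the 322 windows of listed genes, and a CCAAT box in 37.4% and 32.9%. No window of a member held the TATAAA letters (13.6% of all windows), the E-box (7.15%) or the ETS core (8.86%). The second *Aff1* window, at chr5:103754323-103754622, held 22 CG dinucleotides and 3 GC boxes, whereas the other 2 *Aebp2* windows, on either side of the one printed, held 4 each. These matches describe the letters in the windows and no binding was measured.

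*Nsd2* (gene ID 107823), the histone H3 lysine 36 methyltransferase, had 13.21, 14.06 and 12.06 TPM at P6 and 11.67, 8.73 and 8.93 TPM at P56. TPM is a level per length of transcript, on a scale whose sum over all genes is fixed. All P6 values lay above all P56 values, but the gap between the lowest P6 and the highest P56 library was small. The read counts were 771, 805 and 748 at P6 and 489, 367 and 341 at P56, and divided by relative depth they averaged 683 ± 47.0 (SD, n = 3) and 450 ± 58.0 (SD, n = 3). The ages again did not overlap, as in 67.0% of the 312 genes for depth-scaled counts and 64.4% for TPM. The log2 fold change, P6 over P56, was 0.60 ± 0.11 (SE), with an edgeR adjusted p of 0.00083. *Nsd2* was called in all 18 alternative analyses, with log2 fold changes from 0.40 to 0.96.

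*Aff1* (gene ID 17355), the super elongation complex scaffold, had 36.36, 35.81 and 32.88 TPM at P6 and 67.51, 65.09 and 50.31 TPM at P56. Every P56 library was above every P6 library, and P56 replicate 3 was the lowest of its age. The read counts were 2501, 2414 and 2406 at P6 and 3511, 3249 and 2390 at P56, so that without scaling the shallowest P56 library lay just under the lowest P6 library. Scaled for depth, the counts averaged 2149 ± 84.2 (SD, n = 3) at P6 and 3435 ± 401 (SD, n = 3) at P56, and the ages did not overlap. The log2 fold change was -0.68 ± 0.098 (SE), with an edgeR adjusted p of 0.00011. *Aff1* was called in 17 of 18 alternatives, the exception being equal library sizes, where it was -0.32 (edgeR adjusted p = 0.069).

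*Trrap* (gene ID 100683), the acetyltransferase scaffold, had 19.77, 19.95 and 19.09 TPM at P6 and 23.34, 20.22 and 16.37 TPM at P56. The P6 libraries were close together and lay inside the range of the P56 libraries. Depth-scaled counts averaged 1859 ± 18.9 (SD, n = 3) and 1729 ± 246 (SD, n = 3), a coefficient of variation of 1.02% at P6 and 14.2% at P56. The log2 fold change was 0.10, with a 95% interval from -0.13 to 0.33 (edgeR adjusted p = 0.40), so that differences of up to 1.26-fold higher at P6 lay inside the interval.

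*Aebp2* (gene ID 11569), the Polycomb cofactor, had 13.52, 13.85 and 14.44 TPM at P6 and 19.08, 16.3 and 14.36 TPM at P56. The ages overlapped through P56 replicate 3, which was just under the highest P6 library. Depth-scaled counts averaged 519 ± 14.8 (SD, n = 3) and 541 ± 46.8 (SD, n = 3). The log2 fold change was -0.06, with a 95% interval from -0.28 to 0.16 (edgeR adjusted p = 0.62).

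*Cabin1* (gene ID 104248), the calcineurin-binding protein, had 43.83, 42.2 and 40.81 TPM at P6 and 53.78, 44.72 and 39.29 TPM at P56. The P6 libraries again lay inside the range of the P56 libraries. Depth-scaled counts averaged 1532 ± 44.1 (SD, n = 3) and 1531 ± 205 (SD, n = 3). The log2 fold change was 0.00, with a 95% interval from -0.23 to 0.23 (edgeR adjusted p = 0.999), so that differences of up to 1.17-fold in either direction lay inside the interval. In all 5 members the depth-scaled counts varied more between P56 libraries than between P6 libraries.

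**Figure D1:**
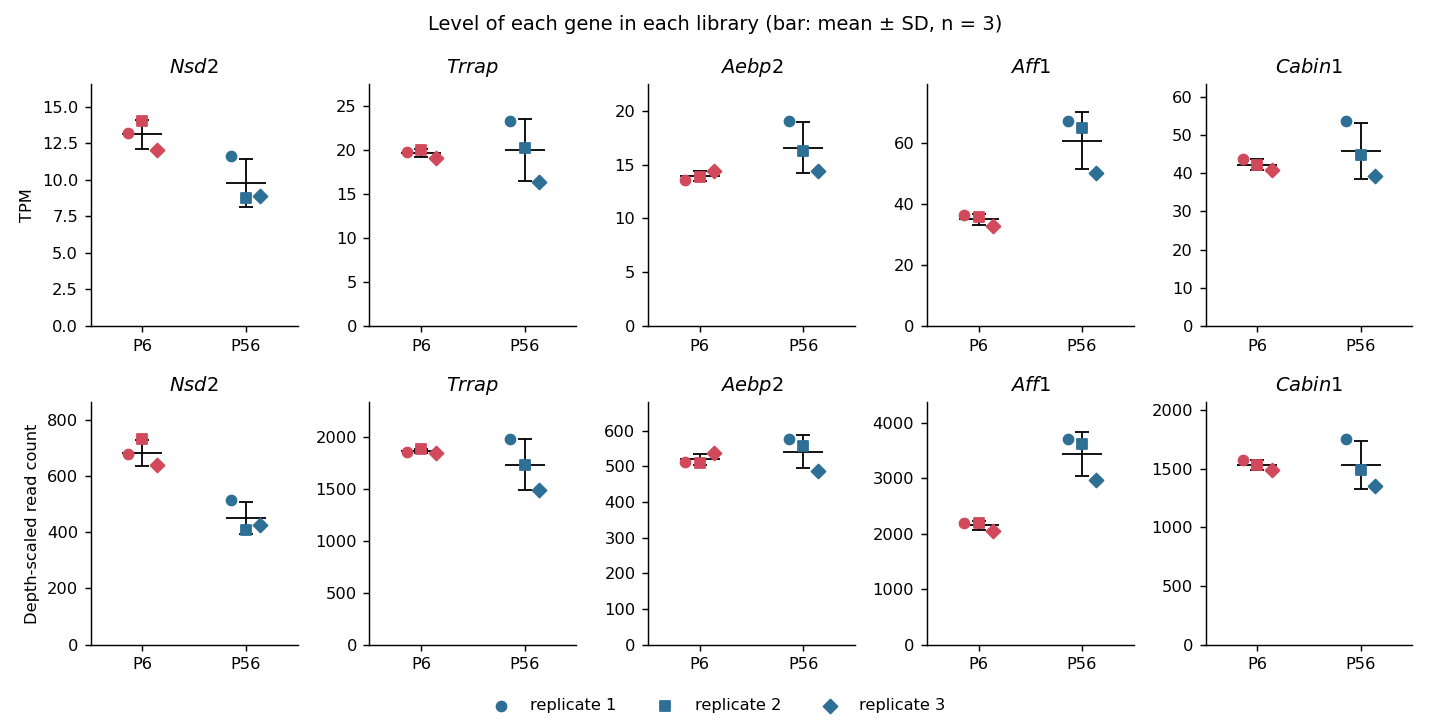
TPM (top row) and read counts divided by relative depth (bottom row) of each gene in the 3 P6 (red) and 3 P56 (blue) libraries, with marker shapes for replicates and black bars for the mean ± SD (n = 3). The ages separate for *Nsd2* and *Aff1*, in opposite directions, and overlap for *Trrap*, *Aebp2* and *Cabin1*.

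The calls of *Trrap*, *Cabin1* and *Aff1* depended on how the libraries were scaled, whereas *Nsd2* was called and *Aebp2* was not called under each scaling. With equal library sizes, which leave the difference in depth in the fold changes, the median log2 fold change of all tested genes moved from -0.02 to 0.34 and 58.7% of genes were called, 148 as higher and 34 as lower at P6, against 94 and 104 at the recovered depth. *Trrap* (0.46, edgeR adjusted p = 0.0087) and *Cabin1* (0.36, edgeR adjusted p = 0.045) were then called higher at P6, and *Aebp2* changed sign without a call (0.30, edgeR adjusted p = 0.13). Relative to the shifted median, these 3 values were near the middle of the table. Tested by limma on log2(TPM + 1), where the median was -0.14 and 61.0% of 300 genes were called, *Nsd2* (0.40, limma adjusted p = 0.016) and *Aff1* (-0.77, limma adjusted p = 0.00013) were called, while *Trrap* (-0.01), *Aebp2* (-0.23) and *Cabin1* (-0.11) were not. With the trend of fold change against transcript length removed, 70.0% of genes were called, and *Trrap*, whose transcript is the longest of the 5, was called higher at P6 (0.25, edgeR adjusted p = 0.0025).

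**Figure D2:**
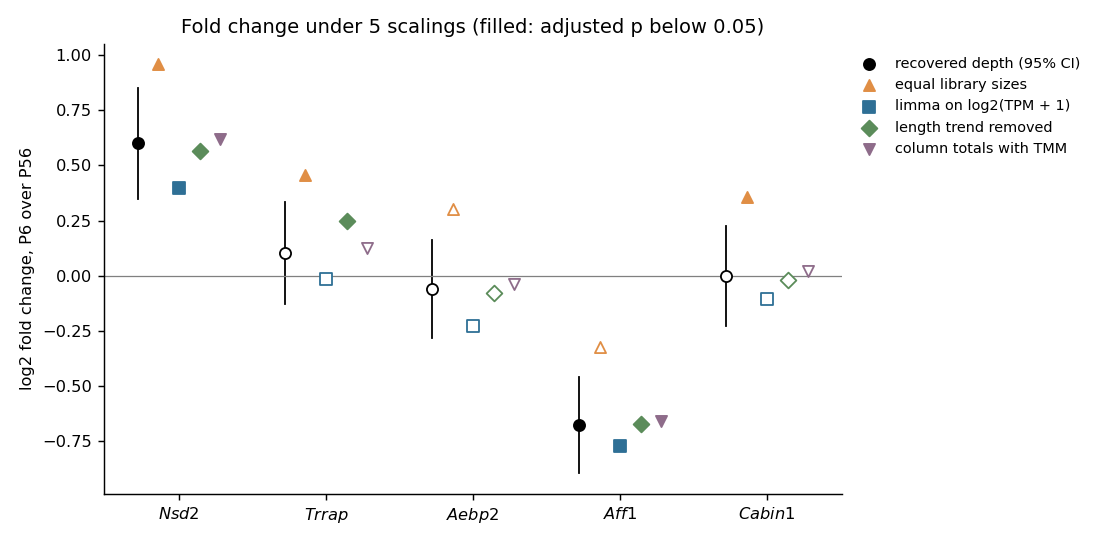
The vertical axis is the log2 fold change, P6 over P56, of each gene under 5 scalings, with 95% confidence intervals for the recovered depth and filled markers where the adjusted p was below 0.05. *Nsd2* lies above 0 and *Aff1* below 0 under each of the 5, and *Aff1* is not called with equal library sizes (-0.32).

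The order of the levels differed between the ages. In TPM at P6, *Cabin1* (42.3 ± 1.51, SD, n = 3) was above *Aff1* (35.0 ± 1.87), followed by *Trrap* (19.6 ± 0.454), *Aebp2* (13.9 ± 0.466) and *Nsd2* (13.1 ± 1.004), the last 2 of which overlapped. At P56 *Aff1* came first (61.0 ± 9.31), then *Cabin1* (45.9 ± 7.32), *Trrap* (19.98 ± 3.49), *Aebp2* (16.6 ± 2.37) and *Nsd2* (9.78 ± 1.64). At P56 the ranges of *Aff1* and *Cabin1*, and of *Trrap* and *Aebp2*, overlapped between libraries.

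Ratios within a library need no depth scaling, and they were compared for all 10 pairs of members. *Aff1* over *Cabin1* was 0.830, 0.849 and 0.806 at P6 and 1.26, 1.46 and 1.28 at P56, so that *Aff1* was the lower of the pair in every P6 library and the higher in every P56 library. *Nsd2* over *Aff1* was 0.363, 0.393 and 0.367 at P6 and 0.173, 0.134 and 0.177 at P56, the widest shift of the 10 pairs (1.22 on the log2 scale). *Nsd2* over *Aebp2* was 0.977, 1.02 and 0.835 at P6 and 0.612, 0.536 and 0.622 at P56. The ratios of 9 pairs did not overlap between the ages, beside 73.0% of the 47895 pairs that can be formed from the 310 genes with a TPM above 0 in every library. The exception was *Trrap* over *Cabin1*, at 0.451, 0.473 and 0.468 against 0.434, 0.452 and 0.417. With 3 libraries against 3, the exact two-sided permutation test cannot go below p = 0.1, which these 9 pairs reached (0.11 adjusted over the 10), so that no pair could pass the threshold. *Trrap* over *Aebp2* was 1.46, 1.44 and 1.32 against 1.22, 1.24 and 1.14, and *Aebp2* over *Cabin1* was 0.308, 0.328 and 0.354 against 0.355, 0.364 and 0.365, the narrowest gap among the 9.

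**Figure D3:**
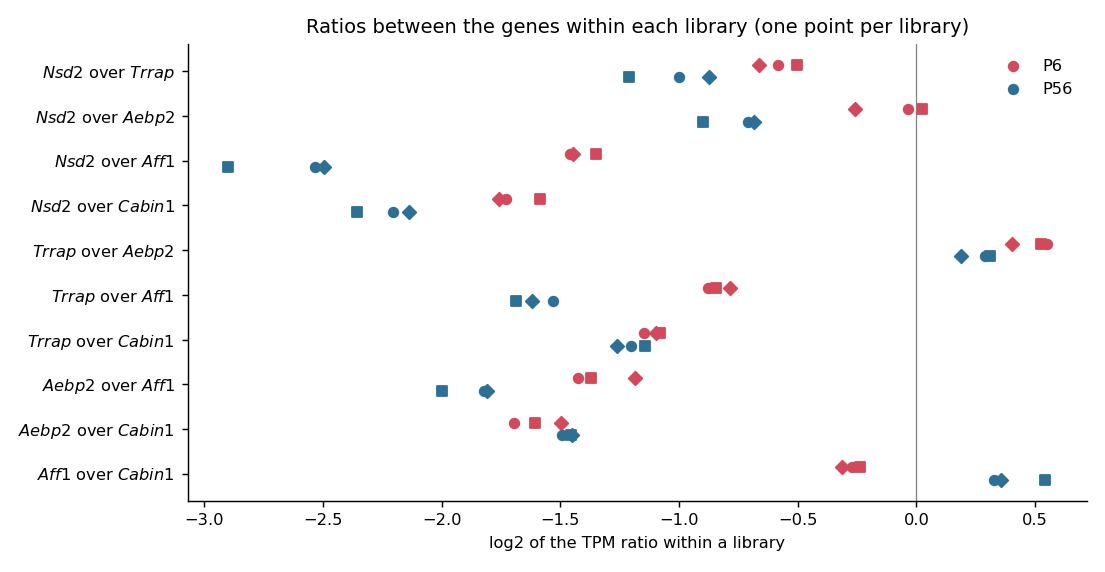
The horizontal axis is the log2 ratio of the TPM of 2 genes within a library, with 1 point for each P6 (red) and P56 (blue) library and marker shapes for replicates as in the plot of levels. The points of *Aff1* over *Cabin1* lie below 0 at P6 and above 0 at P56, and those of *Trrap* over *Cabin1* overlap.

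The count of a gene divided by its FPKM is proportional to the transcript length that the quantifier assigned in that library, which moves when reads are shared out differently among isoforms. RefSeq listed 3 curated transcripts for *Nsd2*, 1 for *Trrap*, 5 for *Aebp2*, 2 for *Aff1* and 1 for *Cabin1*. GENCODE M21 listed 7, 6, 6, 3 and 4 coding transcripts in the same order. The sources used here do not say which transcripts the quantifier was given, so these counts are no guide to how far a length can move. Relative to *Nsd2*, the assigned length averaged 1.85 for *Trrap*, 1.20 for *Aff1*, 0.712 for *Aebp2* and 0.709 for *Cabin1*. In *Aebp2* the length departed from its own mean by 5.42%, 1.09% and 0.252% at P6 and by -6.98%, 3.90% and -3.16% at P56, the widest spread of the 5. Its SD within an age was 4.49%, against a median of 0.355% over the 284 genes examined. In *Nsd2* the departures were 1.58%, 1.97% and 1.72% at P6 and -2.95%, 1.30% and -3.47% at P56. The *Nsd2* length was thus 3.55% longer at P6, a difference smaller than that of its level, and it did not pass the test over all genes (limma adjusted p = 0.53), in which 0.352% of genes were called. It did pass without P56 replicate 2, the P56 library with the longest value (log2 ratio 0.07, limma adjusted p = 0.017). *Aff1* held its length within 0.413% from the shortest to the longest library, *Trrap* within 0.955% and *Cabin1* within 2.99%, and none of these 3, nor *Aebp2*, passed the test (limma adjusted p from 0.57 to 0.90).

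**Figure D4:**
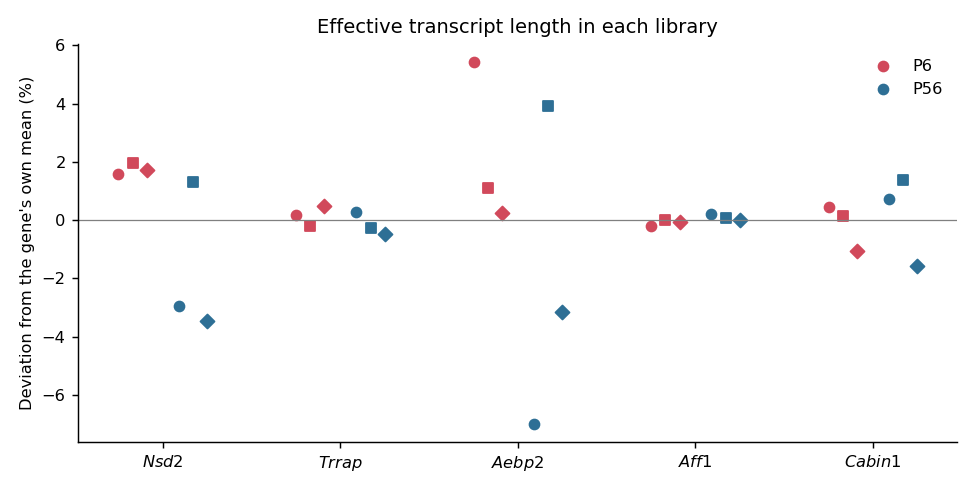
The vertical axis is the percent departure of the effective transcript length of each gene from its own mean, with 1 point for each P6 (red) and P56 (blue) library. *Aebp2* spans -6.98% to 5.42% and *Aff1* stays within 0.413%.

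In the GENCODE M21 annotation, 60 exonic bases of *Nsd2* (0.357% of its exonic bases) were shared with *Nelfa*, a gene on the opposite strand that encodes a subunit of the negative elongation factor. The sources used here do not say whether the counting used strand. The other 4 members shared no exonic base with another gene.

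Beyond the members, 17 of the other 311 genes in 7 lists of chromatin and transcription regulators were in the table. Of these 17, 4 were called higher and 5 lower at P6 and 8 did not pass the test, with a median log2 fold change of -0.18 beside -0.02 over all tested genes. The share called was 52.9%, against 63.9% of all 310. With equal library sizes 7 of them were called higher and 1 lower, where the whole table had 148 and 34. With the members included, 11 list genes were called at the recovered depth and 14 without P56 replicate 3. With any other library left out, 8 to 11 were called.

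Among lysine methyltransferases, the group of *Nsd2*, 7 of 32 listed genes were in the table. *Dot1l*, which methylates lysine 79 of histone H3, was higher at P6, with 48.5 ± 4.07 TPM against 36.3 ± 4.78 (SD, n = 3) and a log2 fold change of 0.52 (edgeR adjusted p = 0.00098). The lysine 4 methyltransferases *Kmt2d* (13.5 ± 1.46 against 27.3 ± 5.46 TPM, log2 fold change -0.89, edgeR adjusted p = 8.1e-05) and *Kmt2a* (-0.56, edgeR adjusted p = 0.0026) were lower at P6, but *Kmt2a* was not called with equal library sizes (-0.21, edgeR adjusted p = 0.26). *Ash1l*, which like *Nsd2* methylates lysine 36, was also lower at P6 (-0.30, edgeR adjusted p = 0.025), although with equal library sizes its sign changed and it was not called (0.06). *Nsd1*, the paralog of *Nsd2*, had 19.7 ± 1.66 TPM at P6 and 24.7 ± 4.28 at P56 and did not pass the test (-0.16, edgeR adjusted p = 0.18), nor did *Prdm16* (-0.23, edgeR adjusted p = 0.14). Without P56 replicate 3, however, *Nsd1* was called lower at P6 (-0.25, edgeR adjusted p = 0.0076). The TPM of *Prdm16* did not overlap between the ages, and the limma test on TPM called it (-0.31, adjusted p = 0.044).

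Among Polycomb genes, the group of *Aebp2*, 3 of 42 were in the table. *Phc3*, a subunit of Polycomb repressive complex 1, was lower at P6 (-0.51, edgeR adjusted p = 0.0025), but its TPM overlapped between the ages (11.6 to 21.4 against 16.3 to 25.4) and neither the limma test on TPM (adjusted p = 0.19) nor edgeR with equal library sizes (adjusted p = 0.42) called it. *Lcor* was at -0.19 (edgeR adjusted p = 0.15), but was called without P56 replicate 3 (-0.26, edgeR adjusted p = 0.041). Of the elongation genes, the group of *Aff1*, 2 of 51 were in the table. The second was *Cdk12*, a kinase of the polymerase tail, with 14.5 ± 1.26 TPM at P6 and 19.7 ± 3.57 at P56 (-0.27, edgeR adjusted p = 0.053). It passed in 8 of 9 other analyses, but with equal library sizes it had the opposite sign and no call (0.09). These 9 were other scalings and models and the fit without P56 replicate 3, with no other library left out.

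Of the calcineurin, MEF2 and HIRA genes, the group of *Cabin1*, 7 of 36 were in the table. *Mef2c*, one of the transcription factors that the CABIN1 protein represses, was higher at P6, with 43.3 ± 2.63 against 30.9 ± 4.46 TPM (SD, n = 3) and a log2 fold change of 0.56 (edgeR adjusted p = 0.00029). *Hdac4*, a class IIa deacetylase that also represses MEF2 factors, was higher at P6 (0.45, edgeR adjusted p = 0.013), but its TPM overlapped between the ages and the limma test on TPM did not call it (0.30, adjusted p = 0.079). Its paralogs *Hdac5* (0.17, edgeR adjusted p = 0.092) and *Hdac9* (0.18, edgeR adjusted p = 0.29) did not pass the test. In the 9 other analyses *Hdac5* passed in 4 and *Hdac9* in 1. *Ubn2*, a HIRA complex subunit, was lower at P6 (-0.31, edgeR adjusted p = 0.0498) but had the opposite sign with equal library sizes (0.05) and was not called with the length trend removed (-0.12, edgeR adjusted p = 0.15). *Rcan2*, an inhibitor of calcineurin, was at -0.18 (edgeR adjusted p = 0.27).

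*Trrap* was the only one of 47 acetyltransferase complex genes in the table. Of 66 remodelers and demethylases, the remodeler *Chd1* was higher at P6 (0.29, edgeR adjusted p = 0.024), but its TPM overlapped between the ages and the limma test on TPM did not call it (0.16, adjusted p = 0.28). *Chd2* did not pass the test (0.18, edgeR adjusted p = 0.16), but passed in 4 of the 9 other analyses. None of 42 Mediator and cohesin genes was among the 312.

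**Figure D5:**
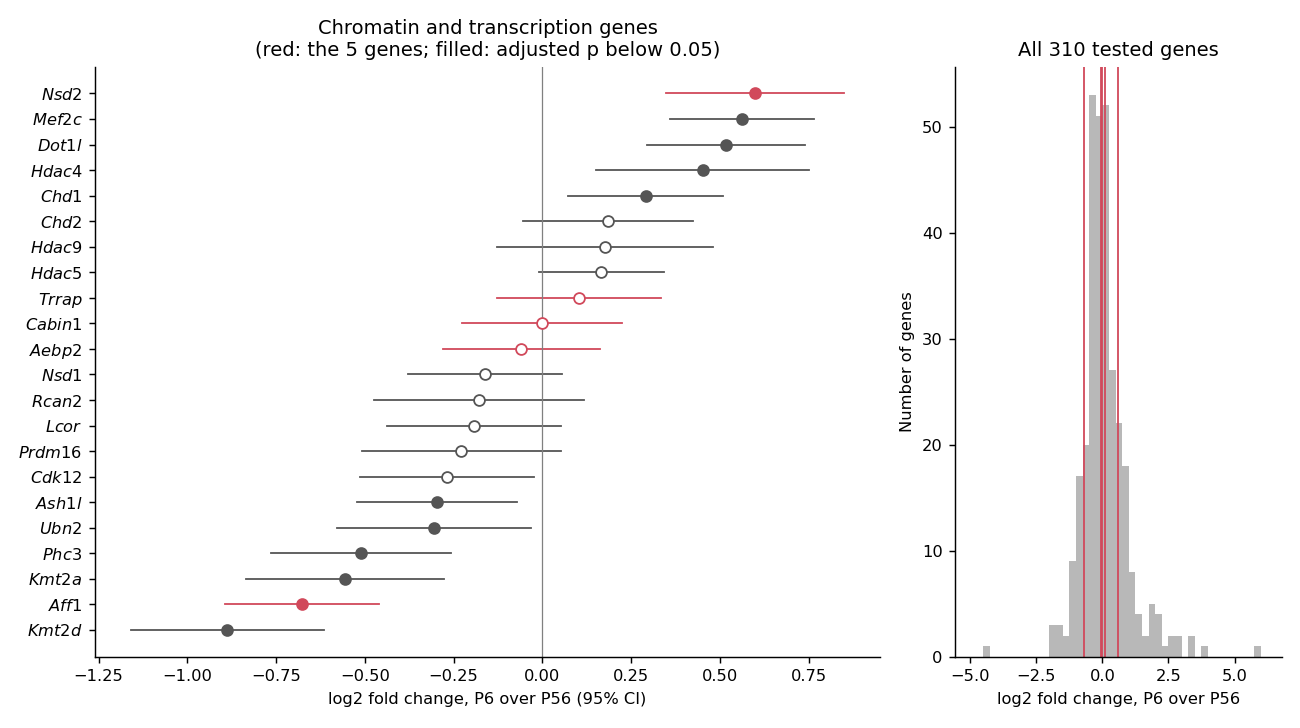
On the left, the log2 fold change, P6 over P56, with its 95% confidence interval for the 22 chromatin and transcription genes in the table, with the 5 members in red and filled markers for an adjusted p below 0.05; on the right, the number of genes at each log2 fold change over all 310 tested genes, with red lines at the members. *Nsd2* is the highest of the 22 and *Aff1* is second lowest, above *Kmt2d*.

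The genes whose pattern over the 6 libraries was most like that of each member were sought among 299 others, by the root mean square difference of log2 TPM after each gene was centred on its own mean. The closest to *Nsd2* was *Dot1l*, at a difference of 0.03, and the next was *Arid5b* (0.07), which encodes a DNA-binding protein of the ARID family. *Dot1l* had 48.53, 52.49 and 44.35 TPM at P6 and 41.83, 33.49 and 33.62 TPM at P56, with the highest and lowest library the same as in *Nsd2*. For *Aff1* the closest were *Lyst* (0.06), a regulator of lysosome traffic, and *Csf1* (0.07), the macrophage growth factor, which had 184.73, 195.55 and 189.98 TPM at P6 and 383.59, 344.19 and 260.85 TPM at P56. For *Trrap* they were *Mprip* and *Iqgap1* (0.03 each), for *Aebp2* *Tmem119* (0.05) and *Smg5* (0.06), and the closest to *Cabin1* was *Iqgap1* (0.05). Among the members themselves, *Trrap* and *Cabin1* were the most alike (0.06) and *Nsd2* and *Aff1* the least (0.63). These points share their libraries and depth, and the likeness was given no test.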

How the data were processed

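RNA of 3 P6 and 3 P56 samples was captured with oligo(dT) beads and sequenced on a BGISEQ-500. Per the labels and the study's methods, the authors used HISAT, Bowtie2 and RSEM (written RSE in the methods), and DESeq2. The sources used here give no versions, no genome build and no rule that selected the 312 genes. The name of the deposited table marks its genes as differentially expressed, without naming the groups compared. The deposited table holds RSEM expected counts (fractional in 23 genes, none a member), FPKM and TPM per library. Its columns of log2 ratios, p-values and q-values between ages, made by the authors, were not used.

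Depth was recovered as the median of count over FPKM across 196 genes with FPKM above 5 in every library. Rounded counts with a mean of at least 10 were tested with edgeR 4.0.16 (R 4.3.3) at that depth, without TMM or covariates. Alternatives used DESeq2 1.42.0, limma 3.58.1 on log2(TPM + 1), other scalings and filters, and each library left out. Effective length (FPKM of at least 1 and 20 counts in every library) was tested with limma, centred on the median of the genes' deviations from their own means. This centring was chosen after seeing the data, in place of centring on the median over genes of unequal length, which moved with which gene was the middle one. Both tests were also run on simulated data of fixed spread, with the depth supplied to edgeR. Such data check neither the recovery of depth nor the effect of an outlying library.

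The members and lists were chosen with earlier results of these data known. The text names the members, the genes of the lists, and for each member the 2 genes most like it with a mean TPM of at least 1, of which 1 is not reported here. Intervals cover the fitted spread between libraries.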

Additional observations from a re-analysis of the deposited data

How the results depend on the processing

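Of the 5 members, *Nsd2* kept its direction and call under all 18 alternatives and *Aff1* its direction, with log2 fold changes from -0.79 to -0.32. With equal library sizes 3 members were called higher and 0 lower, *Trrap* (0.46) and *Cabin1* (0.36) gained a call, *Aff1* lost it (-0.32, adjusted p = 0.069) and *Aebp2* changed sign (0.30). With the length trend removed 2 members were called higher, *Trrap* among them (0.25), and *Cabin1* was at -0.019. On log2(TPM + 1) with and without the filter *Trrap* was at -0.0125 and *Cabin1* at -0.106, and on log2(TPM + 0.1) they were at -0.0124 and -0.108. With depth from FPKM above 20 *Cabin1* was at -0.0035. A further limit of 1 on the size of the log2 fold change left 0 members higher, 0 lower, 0 genes of the lists and 50 of the table. Beyond what each scaling does by construction, the cause was not tested.

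Leaving out 1 library at a time, the log2 fold change ranged from 0.53 to 0.71 for *Nsd2*, from -0.77 to -0.62 for *Aff1*, from 0.01 to 0.21 for *Trrap*, from -0.13 to -0.01 for *Aebp2* and from -0.082 to 0.11 for *Cabin1*, with 172 to 221 genes of the table called. The log2 ratio of effective length of *Cabin1* then ranged from -0.017 to 0.0042, and centred on the median over genes of unequal length *Aff1* (0.0303) and *Cabin1* (0.0286) changed sign without a call. No value was obtained for *Nsd2* at an FPKM of at least 5.

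The labels number the replicates alike, but the same-numbered libraries deviated together only weakly (correlations 0.09, 0.14 and 0.25 over 310 genes), so they were not treated as pairs. With the replicate block 213 genes were called in place of 198, and *Nsd2* (0.60) and *Aff1* (-0.67) were still called. The intervals of the uncalled members rest on the spread between 3 libraries per age.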
